A study of Rattus norvegicus with 6 samples.

Results

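The receivers of interferon signals and the transcription factors that carry those signals to the nucleus were followed in the vestibular sensory epithelium of the rat inner ear. The set held 9 genes of the 32883 in the count table, chosen by symbol: the receptor chains Ifnar1, Ifnar2, Ifngr1 and Ifngr2, the kinases Jak1 and Tyk2, the ISGF3 subunits Stat2 and Irf9, and the interferon regulatory factor Irf7. All 9 had a row and passed the filter on low counts. The samples were utricles and cristae of 6 adult male Long-Evans rats without any genetic modification. In the control group, 3 rats drank plain water, and in the IDPN-4wk group, 3 rats received 3,3'-iminodipropionitrile (IDPN), a nitrile toxic to vestibular hair cells (HCs), at 20 mM in the drinking water over 4 weeks. Each library was the pooled epithelia of a single animal, and no library combined animals. The animal codes of the IDPN-4wk rats share a prefix that no control has, and whether it marks a cage or a litter was not given, so such an effect and the exposure cannot be told apart.

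Interferons are secreted proteins by which cells warn one another of infection or of misplaced nucleic acid. Type I interferons bind the receptor of IFNAR1 and IFNAR2, to which the kinases TYK2 and JAK1 are attached, and type II interferon binds the receptor of IFNGR1 and IFNGR2, which uses JAK1 and another kinase of the family, JAK2. The active type I receptor has STAT2 phosphorylated, which joins IRF9 in the complex ISGF3, and ISGF3 binds a DNA element, the interferon-stimulated response element (ISRE), in front of interferon-stimulated genes. Stat2, Irf9 and Irf7 are themselves such genes, and IRF7 is a factor that switches on the genes of type I interferons, so the pathway holds a feedback loop. In a bulk sample of epithelium, a change in the number of cells that express a gene and a change in the RNA of each cell cannot be told apart.

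Irf7, Irf9 and Stat2 were upregulated in IDPN-4wk rats, 2.95-fold, 2.25-fold and 1.59-fold. None of the 4 receptor chains and neither kinase passed both thresholds, which were a Benjamini-Hochberg adjusted p (Padj) under 0.05 in the quasi-likelihood test of edgeR and a fold change over 1.5. No test compared the factors with the receptors and kinases as groups, and the 95% interval of Ifnar2 (0.12 to 0.62) overlapped that of Stat2 (0.42 to 0.91). Thus 3 of 9 members were called higher, where 3.09% of the 14352 genes tested were, and 0 of 9 were called lower, where 6.62% were. At an unadjusted p under 0.05, 4 members were higher and none was lower, a level that 4744 of the 14352 genes tested reached in either direction, so that count says little about the members. With DESeq2 the calls were also 3 higher and 0 lower. The median log2-Fold change was 0.22 over the members and 0.019 over all genes tested.

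The 3 upregulated factors are shown with the sequence in front of their genes, because binding sites for interferon-activated factors are known in the promoters of such genes. The windows run from 250 bases before to 50 bases after an annotated gene start in RefSeq, on the assembly GRCr8, and are printed 5′ to 3′ along the gene. Capitals mark a match of the ISRE core (GAAA, then 2 bases of any kind, then GAAA again) or of the gamma-activated site (GAS, TTCNNNGAA) on either strand.
Irf7, chr1:205799974-205800273, minus strand: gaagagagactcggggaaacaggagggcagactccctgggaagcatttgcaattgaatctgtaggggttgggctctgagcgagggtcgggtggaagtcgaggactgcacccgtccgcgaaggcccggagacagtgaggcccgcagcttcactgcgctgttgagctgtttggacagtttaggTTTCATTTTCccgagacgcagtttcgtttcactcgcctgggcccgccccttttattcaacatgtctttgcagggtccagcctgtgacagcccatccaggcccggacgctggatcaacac
Irf9, chr15:33065586-33065885, plus strand: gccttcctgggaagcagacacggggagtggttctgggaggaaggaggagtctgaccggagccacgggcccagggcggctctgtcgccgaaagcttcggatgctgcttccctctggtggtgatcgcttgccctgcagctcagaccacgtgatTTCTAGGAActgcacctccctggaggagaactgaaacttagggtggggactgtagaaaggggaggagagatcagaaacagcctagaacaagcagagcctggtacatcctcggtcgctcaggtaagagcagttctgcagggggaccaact
Stat2, chr7:1286840-1287139, plus strand: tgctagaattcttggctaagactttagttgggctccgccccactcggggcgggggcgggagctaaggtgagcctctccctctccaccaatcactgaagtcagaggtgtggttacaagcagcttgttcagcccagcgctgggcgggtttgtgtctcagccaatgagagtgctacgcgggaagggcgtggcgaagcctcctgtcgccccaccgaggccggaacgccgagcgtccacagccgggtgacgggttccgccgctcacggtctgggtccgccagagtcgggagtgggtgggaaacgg
In the Irf7 window, the capitals are an ISRE core read on the opposite strand, at bases -69 to -60, where -1 is the base just before the start. The Irf9 window held a GAS at bases -99 to -91 and no ISRE core. The Stat2 window held neither. RefSeq extends each of these genes upstream of the start used here, so a window describes only 1 annotated start.

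Sequences were found for 7 of the 9 members, all except Jak1 and Tyk2. Of the receptor genes, Ifnar2 had a GAS at bases -249 to -241, and Ifnar1, Ifngr1 and Ifngr2 had no match. No match overlapped another. Across all 33469 promoter windows of that length, 3.92% held an ISRE core and 8.87% held a GAS. Of the interferon-stimulated genes on the list described below, 22 of the 32 with a sequence (68.8%) held an ISRE core, as the Irf7 window did, and 9 of the 32 (28.1%) held a GAS, as the Irf9 window did. A match of letters is a description and does not show that a factor was bound.

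Ifnar1 encodes the chain of the type I receptor that carries TYK2. It was at 108, 104 and 114 CPM (counts scaled to a common library total) in the control libraries and at 120, 108 and 113 CPM in the IDPN-4wk libraries, in the order of replicates 1, 2 and 3. The groups overlapped, and the difference was smaller than the spread between animals (log2-Fold change 0.065 ± 0.074 SE, Padj 0.584 by edgeR). Its 95% interval ran from -0.098 to 0.23, inside the 1.5-fold thresholds at 0.585 in either direction.

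Ifnar2 encodes the chain that carries JAK1 and docks STAT2. It was at 31.1, 35.6 and 28.4 CPM in control and at 45.3, 38.1 and 39.4 CPM in IDPN-4wk libraries. Every IDPN-4wk library lay above every control, with replicate 1 the highest. The rise was 1.29-fold, from 31.7 ± 3.63 to 40.9 ± 3.83 CPM (SD of 3 animals each; log2-Fold change 0.37 ± 0.11 SE, Padj 0.0440 by edgeR), so Ifnar2 met the adjusted p but not the fold change. It was the only member besides the 3 upregulated factors with a Padj under 0.05, a level that 19.4% of all genes tested reached. When a library was left out, its Padj stayed under 0.05 only without control replicate 2 (0.0357). Without any other library it was from 0.0537 to 0.163.

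Neither type II receptor chain met the adjusted p. Ifngr1, the chain that binds interferon gamma, was at 74.9, 79.5 and 74.9 CPM in control and at 80.1, 77.8 and 72.5 CPM in IDPN-4wk libraries. These ranges overlapped almost fully, and the log2-Fold change of 0.0069 (SE 0.075, Padj 0.960 by edgeR) had no firm sign: it was from -0.031 to 0.035 when a library was left out. The 95% interval was from -0.16 to 0.17.

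Ifngr2, the signalling chain that carries JAK2, was at 27.4, 32.9 and 30.8 CPM in control and at 35.4, 35.4 and 35.2 CPM in IDPN-4wk libraries. The IDPN-4wk libraries were close to one another and all above the controls. The log2-Fold change was 0.22 (SE 0.10, 95% interval -0.0020 to 0.44) and was not past the threshold (Padj 0.155 by edgeR), although library size alone in place of TMM scaling gave a Padj of 0.0351.

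**Figure D1:**
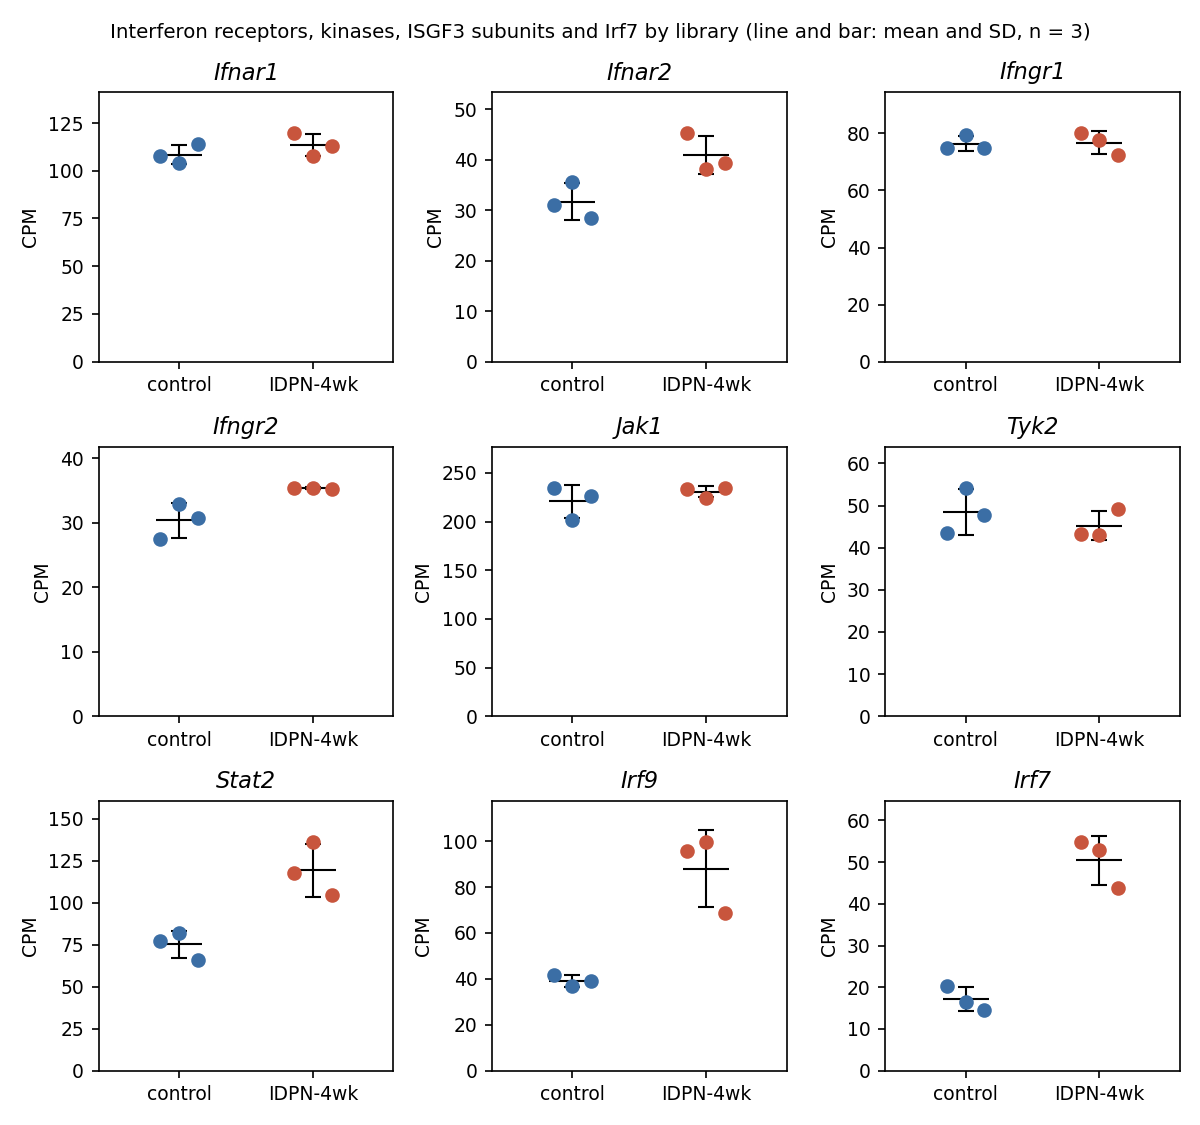
Level of each member in CPM (vertical axes, from 0) in the 3 control (blue) and 3 IDPN-4wk (red) libraries, with the mean and SD of each group in black. Irf7, Irf9 and Stat2 are higher in every IDPN-4wk library by a wide margin, Ifnar2 and Ifngr2 by a small one, and the other 4 genes overlap.

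Ifnar2, Ifnar1 and Ifngr2 lie next to one another on rat chromosome 11 in the order Ifnar2, Il10rb, Ifnar1, Ifngr2, with no other protein-coding gene between them in GRCr8. Il10rb encodes the shared chain of the interleukin-10 and lambda interferon receptors. It was at 23.0, 15.4 and 14.7 CPM in control and at 16.5, 27.9 and 31.6 CPM in IDPN-4wk libraries, and the groups overlapped (log2-Fold change 0.52 ± 0.23 SE, Padj 0.150 by edgeR). None of the 4 neighbouring receptor genes thus passed both thresholds. The next gene along, Tmem50b, had a log2-Fold change of 0.025 (Padj 0.880 by edgeR). Ifngr1 is on chromosome 1.

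Jak1 encodes the kinase that the type I and type II receptors share. It was at 235, 202 and 226 CPM in control and at 233, 224 and 235 CPM in IDPN-4wk libraries. The groups overlapped (log2-Fold change 0.062 ± 0.076 SE, 95% interval -0.11 to 0.23, Padj 0.610 by edgeR). In the current annotation Jak1 overlaps Raver2, and the protocol does not keep the strand, and the overlap could not be split by strand. Raver2 had a log2-Fold change of -0.025 (Padj 0.933 by edgeR).

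Tyk2 encodes the kinase of IFNAR1. It was the only member with a negative estimate. It was at 43.5, 54.2 and 47.7 CPM in control and at 43.4, 43.0 and 49.3 CPM in IDPN-4wk libraries. The groups overlapped, and control replicate 2 was the highest library (log2-Fold change -0.10 ± 0.10 SE, 95% interval -0.33 to 0.13, Padj 0.539 by edgeR). With library size alone the estimate was 0.0079, so no direction can be given for Tyk2.

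Stat2 showed the smallest rise of the 3 upregulated factors. It was at 77.4, 82.1 and 66.0 CPM in control and at 118, 136 and 105 CPM in IDPN-4wk libraries. All IDPN-4wk libraries lay above all controls. The mean rose from 75.2 ± 8.24 to 119 ± 15.9 CPM (SD of 3 animals each; log2-Fold change 0.67 ± 0.11 SE, Padj 0.00203 by edgeR). The call sat close to the 1.5-fold threshold: the log2-Fold change was 0.58 once control replicate 3 was dropped and 0.56 once IDPN-4wk replicate 2 was, both under 0.585, with Padj 0.0114 by edgeR and 0.00746.

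Irf9, the DNA-binding subunit of ISGF3, was at 41.8, 36.7 and 38.9 CPM in control and at 95.8, 99.6 and 68.8 CPM in IDPN-4wk libraries. The controls were close together, and IDPN-4wk replicate 3 was well below the other exposed animals while still above every control. The mean rose from 39.1 ± 2.59 to 88.1 ± 16.8 CPM (SD of 3 animals each; log2-Fold change 1.17 ± 0.13 SE, Padj 1.91e-04 by edgeR). When a library was left out, the log2-Fold change was from 1.07 to 1.31.

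Irf7 showed the largest rise of the members. It was at 20.2, 16.5 and 14.6 CPM in control and at 54.8, 52.8 and 43.8 CPM in IDPN-4wk libraries. The lowest exposed animal was above the highest control by more than the range within either group. The log2-Fold change was 1.56 (SE 0.14, 95% interval 1.26 to 1.86, Padj 4.85e-05 by edgeR), with a mean of 17.1 ± 2.86 in control and 50.5 ± 5.87 CPM after IDPN (SD of 3 animals each). It was from 1.46 to 1.70 when a library was left out. Its counts, the lowest of the members in every control library, were from 206 to 313 in control and from 680 to 1024 in IDPN-4wk libraries. Of the 9 members, 5 had groups that did not overlap, which 37.8% of all genes tested also had, so this measure alone says little about a gene such as Ifngr2.

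**Figure D2:**
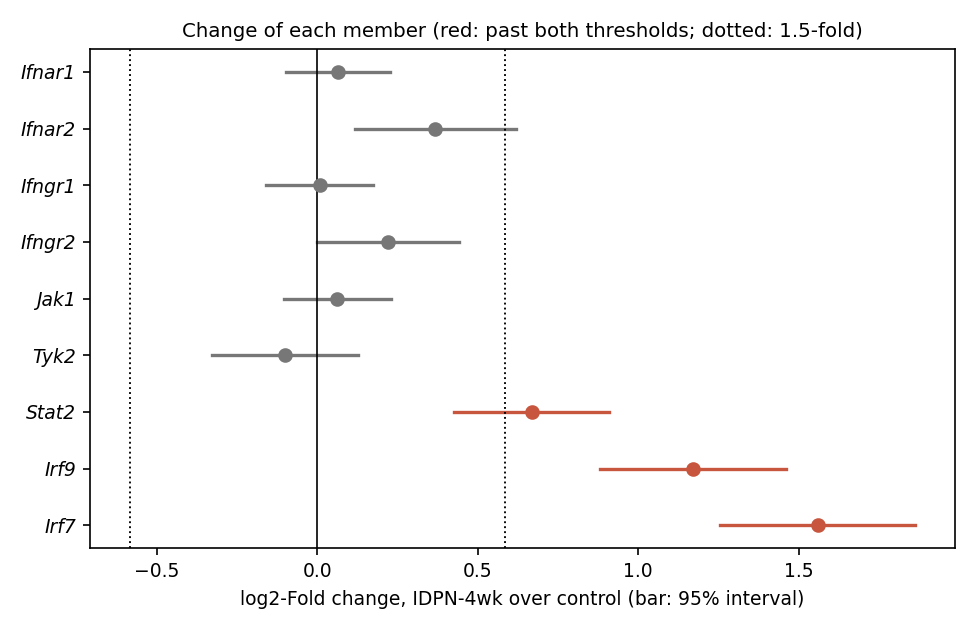
Log2-Fold change of IDPN-4wk over control (horizontal axis) for each member with its 95% interval from the edgeR fit; dotted lines mark 1.5-fold. Irf7 and Irf9 have intervals wholly above the 1.5-fold line, the interval of Stat2 crosses it, and those of Ifnar1, Ifngr1, Ifngr2, Jak1 and Tyk2 include 0.

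The protein-coding genes next to the upregulated factors were read as a check on position. Phrf1, beside Irf7, had a log2-Fold change of 0.052 (Padj 0.661 by edgeR), and Rnf31, beside Irf9, had one of 0.086 (Padj 0.417 by edgeR). Il23a, beside Stat2, had a log2-Fold change of -1.52 with an Padj of 0.0513 by edgeR. None of them was called, and Cdhr5, Rec8 and Apof on the other sides were below the filter. The rises of Irf7, Irf9 and Stat2 were therefore not shared by the tested gene directly beside them.

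Because a difference taken within a library does not depend on how libraries were scaled, the mean log2 CPM of Irf7, Irf9 and Stat2 was set against that of the 4 receptor chains, Jak1 and Tyk2 in the same animal. The difference was -0.67, -0.90 and -0.97 in the controls and 0.21, 0.37 and -0.069 in the IDPN-4wk libraries. Gene lengths enter both means, so only the shift between groups can be read and not the sign of a value. The shift was 1.02, from -0.85 ± 0.16 to 0.17 ± 0.22 on the log2 scale (SD, n = 3 each), and lay almost wholly on the side of the factors: their mean went from 5.20 to 6.33, and that of the receptors and kinases from 6.05 to 6.16. Taken alone against the same receptors and kinases, Irf7 shifted by 1.45, Irf9 by 1.05 and Stat2 by 0.56. These are descriptions, since the genes on each side were chosen with results known.

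**Figure D3:**
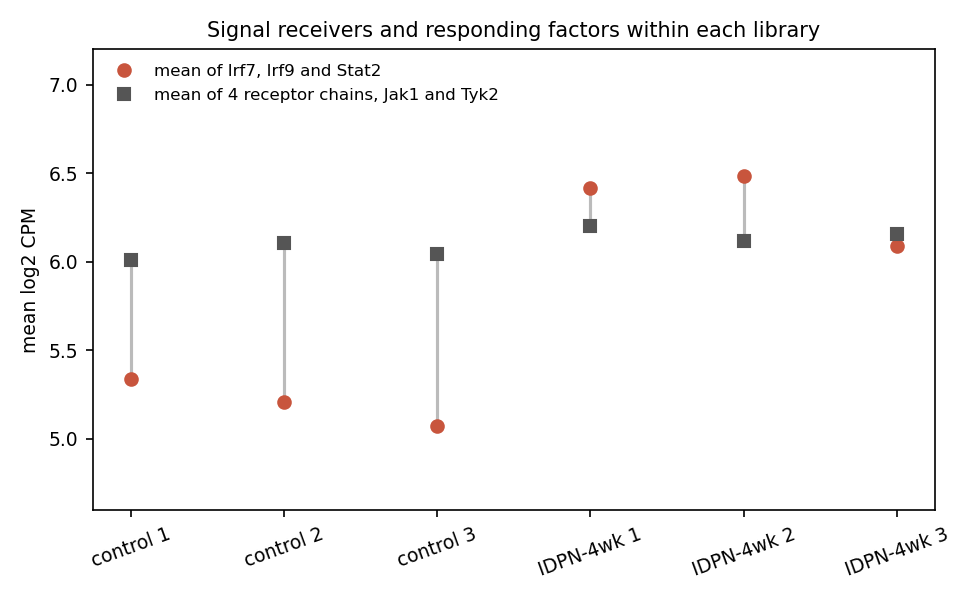
Mean log2 CPM (vertical axis) of Irf7, Irf9 and Stat2 (red circles) and of Ifnar1, Ifnar2, Ifngr1, Ifngr2, Jak1 and Tyk2 (grey squares) in each of the 6 libraries. The squares stay between 6.01 and 6.20, while the circles move from between 5.07 and 5.34 in control to between 6.09 and 6.49 in IDPN-4wk libraries; the gap within a library carries gene length, and only its change can be read.

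IDPN-4wk replicate 3 had the lowest level of Irf7, of Irf9 and of Stat2 among the exposed animals. Relative to the control mean, it stood at 1.36, 0.81 and 0.48 on the log2 CPM scale for these genes, replicate 1 at 1.69, 1.29 and 0.65, and replicate 2 at 1.63, 1.35 and 0.86. The order of replicates 1 and 2 differed between the genes. The same animal had the highest summed level of 8 HC markers among the exposed rats, 1483 CPM against 1151 and 1230 CPM in replicates 1 and 2, and from 2180 to 2340 CPM in control. It also had the highest sums of supporting cell markers (7552 CPM against 6478 and 5830 CPM) and of Schwann cell and glia markers (11640 CPM against 10430 and 8467 CPM), so this was not particular to HCs. With 3 exposed animals, a link between these values was not tested.

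**Figure D4:**
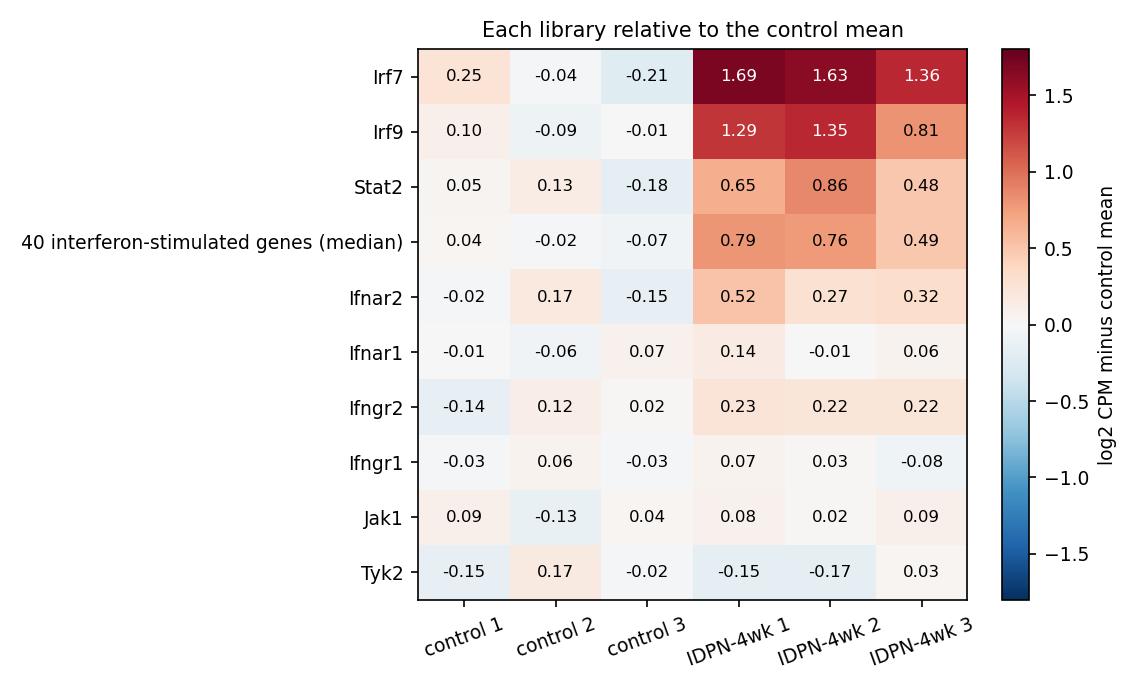
Log2 CPM minus the control mean (colour and printed value) in each library (columns) for the members and for the median of 40 interferon-stimulated genes (rows). The rows of Irf7, Irf9, Stat2 and the interferon-stimulated genes are high in all IDPN-4wk libraries and lowest of those in replicate 3, while the rows of the receptors and kinases stay within 0.52 of the control mean.

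The other kinases and STAT factors of the family that were tested had smaller log2-Fold changes than Stat2, but no test compared them with it. Of 7 genes listed, Stat4 had no row in the table and 6 were tested, and 0 were called by edgeR (median 0.27 on the log2 scale). At an unadjusted p under 0.05, reached by 4744 of all 14352 genes tested, they numbered 2, DESeq2 called 0, and library size alone called 1. Stat3, a factor used mainly by interleukin-6 type cytokines, was at 159, 162 and 149 CPM in control and at 247, 243 and 184 CPM in IDPN-4wk libraries, without overlap. It met the adjusted p and not the fold change (log2-Fold change 0.52 ± 0.11 SE, Padj 0.00687 by edgeR). Jak2, the kinase of IFNGR2, had a log2-Fold change of 0.046 (Padj 0.808 by edgeR), which places all 3 kinases of the interferon receptors below the threshold.

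Among the other interferon regulatory factors, 1 of the 6 tested was called higher and 0 lower, against 3.09% and 6.62% of all genes tested. Irf1, an early responder to interferon gamma, rose from 14.5, 18.4 and 16.1 CPM in control to 38.5, 28.5 and 29.0 CPM in IDPN-4wk libraries (log2-Fold change 0.97 ± 0.15 SE, Padj 0.00122 by edgeR). No exposed animal overlapped a control. Irf3, the close relative of Irf7 that is present before any signal, had a log2-Fold change of -0.069 (SE 0.084, Padj 0.613 by edgeR). The median of the 6 was 0.055. Irf4 was below the filter.

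Other receptors that signal through JAK1 or TYK2 were compared with the interferon receptors. Of 15 tested, 0 were called by edgeR or by DESeq2, 5 had an unadjusted p under 0.05, close to the share of all genes tested, and the median log2-Fold change was 0.17. Lifr, the receptor of leukaemia inhibitory factor, met the adjusted p alone (log2-Fold change 0.46, Padj 0.0417 by edgeR), as Ifnar2 did.

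Genes that restrain interferon signalling included the largest rise on any pathway list. Usp18, a protease that removes ISG15 from proteins and blocks IFNAR2, was at 9.56, 4.33 and 6.80 CPM in control and at 48.4, 46.8 and 23.7 CPM in IDPN-4wk libraries. All exposed animals were above all controls, with replicate 3 again the lowest of them. Its log2-Fold change was 2.52 (SE 0.30, Padj 3.07e-04 by edgeR). It was the only one of the 14 inhibitors that edgeR with TMM scaling called. Of all genes tested, 3.09% were called higher and 6.62% lower in that fit. DESeq2 called 2 of the inhibitors and library size alone called 3. The median of the 14 was 0.27, and 8 had an unadjusted p under 0.05, where 4744 of the 14352 genes tested did. The suppressors of cytokine signalling Socs1 (log2-Fold change 0.54, Padj 0.0918 by edgeR) and Socs3 (0.91, Padj 0.0644 by edgeR) did not pass.

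Upstream of IRF7 lie sensors of foreign or misplaced nucleic acid and the adaptors and kinases that activate it. Of 17 listed genes, 14 were tested, and 3 were called higher and 0 lower, against 3.09% and 6.62% of all genes tested. Ticam1 and Mb21d1 had no row, and Tlr9 was below the filter. At an unadjusted p under 0.05 by edgeR there were 5, a level that 4744 of the 14352 genes tested reached. Tmem173, which encodes STING, rose from 3.79 ± 0.321 to 7.24 ± 0.910 CPM (SD of 3 animals each; log2-Fold change 0.93 ± 0.21 SE, Padj 0.0117 by edgeR). Ddx58, the RNA sensor RIG-I, had a log2-Fold change of 0.80 (Padj 0.0336 by edgeR), and Myd88, the adaptor of Toll-like receptors, one of 0.65 (Padj 0.00385 by edgeR). The kinase Tbk1, which phosphorylates IRF7, was at 0.14 (Padj 0.356 by edgeR), and the median of the 14 genes was 0.12.

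Interferon-stimulated genes were the list with the most calls. Of 40 tested, 22 (55.0%) were called higher and 0 lower, against 3.09% and 6.62% of all genes, and the median log2-Fold change was 0.68. The list was chosen with results of these data known. The study itself names Stat2, Irf7, Irf9, Stat3, Oas2, Igtp and Isg15 from these libraries, so the rises of those genes are not independent evidence of a direction. Isg15, a ubiquitin-like modifier, had the largest change, from 4.97, 2.94 and 2.83 CPM in control to 17.1, 28.4 and 8.69 CPM in IDPN-4wk libraries (log2-Fold change 2.33 ± 0.39 SE, Padj 0.00225 by edgeR). The groups did not overlap, although the exposed animals spread over more than 19 CPM. Log2-Fold changes were 1.96 for Gbp2, a guanylate-binding protein, 1.92 for Mx2, an antiviral GTPase, 1.88 for Rsad2, which encodes viperin, and 1.81 for Oas1a, an enzyme activated by double-stranded RNA. Mx2 and Oas1a have close relatives that can share reads with them. Not every gene of the list rose: B2m, the light chain of MHC class I, had a log2-Fold change of 0.029 (SE 0.092, Padj 0.858 by edgeR).

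**Figure D5:**
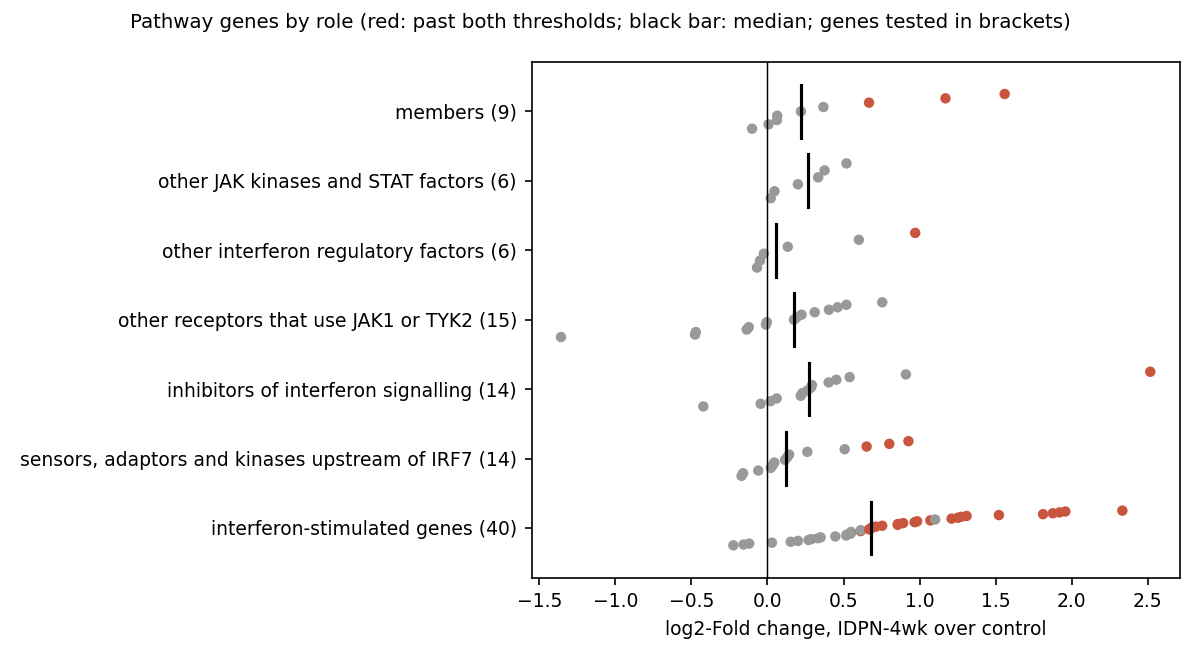
Log2-Fold change of IDPN-4wk over control (horizontal axis) for each tested gene of the members and of 6 pathway lists (rows), with genes called higher in red and the median of each row as a black bar. The medians lie between 0.055 and 0.27 in every row except that of the 40 interferon-stimulated genes, where the median is 0.68 and 22 genes are red.

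The ligands themselves were near or below detection. Of 11 interferon genes with a row, among them Ifnb1, Ifng and 5 genes of the alpha family, 9 had no count in any of the 6 libraries. Ifne had 6, 0 and 0 counts in control and 0, 3 and 3 in IDPN-4wk libraries, and Ifnk had 1 count each in IDPN-4wk replicates 1 and 2. With a count of 0, a level of up to 3 counts remains possible, equal to between 0.155 and 0.216 CPM in these libraries. Interferon transcripts at such levels, or made outside the dissected epithelium, were not detectable here.

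Markers of immune cells were read beside these results, because such cells can carry high Irf7. The summed level of 10 macrophage and microglia markers was from 115 to 157 CPM in control and from 98.0 to 196 CPM in IDPN-4wk libraries. Of the 10, 1 was called higher, C1qb, and 0 lower, against 3.09% and 6.62% of all genes tested. Siglech, a marker of plasmacytoid dendritic cells, had no count in any library. The 7 dendritic and B cell markers in the table summed to between 23.2 and 46.1 CPM in control and between 4.85 and 5.39 CPM in IDPN-4wk libraries, nearly all of it Cd74, which was called lower, and 4 of the 7 were never over 3 counts. The 8 T and NK cell markers summed to between 19 and 22.2 CPM in control and between 13.9 and 19.8 CPM in IDPN-4wk libraries. Of the 3 tested, 0 were called by edgeR, and 2 had an unadjusted p under 0.05, as 4744 of the 14352 genes tested did. These 2 went in opposite directions, with log2-Fold changes of -0.95 for Cd4 and 0.73 for Cd3g. Neutrophil markers summed to at most 3.09 CPM in any library.

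Markers of other cell types were read in the same way, beside the 3.09% of all genes tested that were called higher and the 6.62% called lower. The tissue carried its defining markers, and 8 HC markers summed to between 2180 and 2340 CPM in control and between 1150 and 1480 CPM in IDPN-4wk libraries, with 4 called lower. The sums of 7 supporting cell markers were from 10800 to 11900 CPM in control and from 5830 to 7550 CPM in IDPN-4wk libraries, with 3 called lower. The largest part of that sum was Otog, which encodes otogelin and had a mean of 6262 CPM in unexposed and 3199 CPM in exposed rats, while Sox2 overlapped between groups (Padj 0.347 by edgeR) and Hes1 had a positive estimate (log2-Fold change 0.36, Padj 0.0783 by edgeR). Schwann cell and glia markers had 1 of 6 called lower, endothelium 1 of 4 lower, and stroma 1 of 6 in each direction. Red blood cell markers, of which 2 had a row, summed to between 93.1 and 111 CPM in control and between 109 and 217 CPM in IDPN-4wk libraries, with 1 called higher. The part of these marker differences in the rises of Irf7, Irf9 and Stat2 was not tested.

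The genes whose profile over the 6 libraries was nearest to each upregulated factor were found by the root mean square difference of log2 CPM after the control mean was subtracted. For Irf7 these were Gch1 (0.13), which encodes the first enzyme of tetrahydrobiopterin synthesis, Oasl2 (0.16), a relative of the OAS enzymes, and Lyve1 (0.17), a hyaluronan receptor of lymphatic endothelium and of some resident macrophages. Lyve1, which was not on the macrophage marker list, had a log2-Fold change of 1.59 with Padj 1.78e-05 by edgeR, and its part in the rise of Irf7 was not tested. For Irf9 they were Gmnn (0.081), which encodes geminin, Aloxe3 (0.115) and Sdc1 (0.12), which encodes syndecan-1. For Stat2 they were Setd6 (0.067), Anpep (0.072) and Nfkbia (0.075), which encodes the NF-kB inhibitor alpha. The search covered 12945 other genes, and a profile of 6 libraries in 2 groups is mostly the difference between those groups, so nearness here is a matter of similar size of change.

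Libraries held from 13358678 to 18561991 counts, and all 9 members were measured with at least 206 counts in every library. No member shared its counts with another tested gene. The common biological coefficient of variation over all genes in the edgeR fit was 0.124.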

How the data were processed

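Total RNA of the vestibular epithelium of 3 control and 3 IDPN-4wk rats was converted to full-length cDNA with an oligo-dT primer (SMART-seq2) and sequenced in paired-end mode by the authors. Per the labels, reads were mapped with STAR 2.5.3a and genes counted with RSEM 1.3.0; the study's methods give the rat build Rnor6.0. The deposited values are expected counts per gene, not normalised. They were whole as deposited, and rounding changed 0 values. RSEM divides reads that match several genes, so close paralogs are less certain. The protocol does not keep the strand. All 6 columns were matched to a sample by library name.

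Groups were taken from the treatment label, and replicates were numbered in accession order, which pairs nothing. Low genes were removed by filterByExpr, with 10 as the smallest count and 15 as the smallest total, and 14352 genes with 99.9% or more of every library's counts were kept. After TMM scaling, groups were tested by glmQLFit and glmQLFTest in edgeR 4.0.16 under R 4.3.3, with Benjamini-Hochberg adjustment over all genes tested. The SE was derived from the quasi F statistic, and intervals are 95%. CPM are counts scaled to a common library total after TMM. Log2 CPM used a prior count of 2. The script was tested on simulated data. Alternatives used DESeq2 1.42.0, limma-voom (limma 3.58.1), glmTreat, other scalings, no filter and fits without each library. Library totals limit precision, and limits for counts of 0 (3 counts) cover counting error only, since reads had no molecular identifiers.

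The members, lists and tests were chosen with earlier results of these data known. Genes named are the members, up to 5 called genes of each list by size of change, neighbours of members and the 3 nearest profiles of Irf7, Irf9 and Stat2. Stat3, Jak2, Irf3, Lifr, Socs1, Socs3, Tbk1, B2m, Otog, Sox2 and Hes1 were named after their values were seen. RefSeq tables of GRCr8, another build than that of the counts, gave promoter sequences and the order of genes, and 9 of 9 members matched by symbol.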

Additional observations from a re-analysis of the deposited data

How the results depend on the processing

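Irf7 and Irf9 stayed past both thresholds in all 7 alternative fits and whichever of the 6 libraries was dropped, and no alternative brought a receptor chain or kinase past both. Stat2 was not called by glmTreat, whose null is a change of up to 1.5-fold (log2-Fold change 0.67, adjusted p 0.932), and its log2-Fold change was from 0.56 to 0.74 in the fits without a library, under the threshold without control replicate 3 or IDPN-4wk replicate 2. The count of members called was therefore 2 or 3 in every fit. The sign of Ifngr1 turned with DESeq2 size factors (-0.0017), in the DESeq2 test (-0.0017) and in 4 of the fits without a library (range -0.031 to 0.035), and that of Tyk2 with library size alone (0.0079). With library size alone, the median log2-Fold change of all genes was 0.13 in place of 0.019, and genes called higher and lower numbered 762 and 780 in place of 444 and 950, so values near 0 shift with the scaling. Genes called in all were 453 with glmTreat in place of 1394. Library size alone called 1 of the other kinases and STAT factors in place of 0, and the inhibitors called were 3 with library size alone and 2 with DESeq2 in place of 1. No paired analysis was possible because the labels give no replicate numbers. With 3 animals per group, the 95% interval of Ifngr2 was from -0.0020 to 0.44.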
